A study of Mus musculus with 9 samples.

Results

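This comparison sets mouse embryonic fibroblasts made senescent with p21 directly against fibroblasts made senescent with p16, across all genes. It uses 6 of the 9 libraries of the series: 3 from cells overexpressing p21 by lentivirus and 3 from cells overexpressing p16, named by their titles. The other 3 libraries, from cells given the empty vector, serve as a reference level. All cells were C57BL/6 embryonic fibroblasts, and RNA was taken 10 days after overexpression began. By its title, the series is about what p21-expressing cells secrete and how immune cells recognise them. Of 24062 genes in the table, 14572 had enough reads to be tested. In what follows, higher and lower refer to p21 cells relative to p16 cells unless another pair is named. Levels are in CPM, read counts scaled to the same library total, and a gene is called when its adjusted p is under 0.05.

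Both proteins block cyclin-dependent kinases (CDKs), the enzymes that drive a cell through its division cycle. p16, encoded by Cdkn2a, binds CDK4 and CDK6 and keeps them from pairing with D-type cyclins, whereas p21, encoded by Cdkn1a, binds cyclin-CDK complexes more broadly, those of CDK2 included, and is a classical target of p53. With the kinases blocked, the retinoblastoma family proteins stay unphosphorylated and hold E2F target genes off, partly as the DREAM complex, which joins p107 or p130 to the MuvB proteins. Senescent cells stop dividing, enlarge their lysosomes, lose lamin B1 and often secrete cytokines, proteases and growth factors.

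Library totals ran from 56864342 to 76054820 counts, with 16523 to 16950 genes read in each library. The labels limit the comparison in several ways. The p16 libraries carry no status or virus label of their own, their records do not run on from the others, and a separate preparation could not be told apart from p16 itself. Control libraries, too, have senescent as their status label. Replicate 3 of each group also differed from the other replicates in its sex-linked RNA. Xist, which coats the inactive X chromosome, reached 397, 158 and 262 CPM in replicate 3 of control, p21 and p16, and at no more than 1.34 CPM elsewhere. Ddx3y, a Y-linked gene, stood at 10.77 CPM in p21 replicate 3, at 1.10 and 1.26 CPM in control and p16 replicate 3, and at 50.07 to 68.53 CPM elsewhere, so p21 replicate 3 carried both signals, unlike its same-numbered partners. No label says whether replicates came from separate embryos or dishes. The p-values therefore cover the spread among these libraries and no more. Between replicates 1 and 2 that spread may be technical, whereas replicate 3 differed from them in sex-linked RNA. Fibroblast markers were read in both groups, and edgeR called 0 of 15, where it called 12.8% of all genes tested. DESeq2 called 0, and 1 had an unadjusted p under 0.05. Their log2 fold changes ran from -0.583 to 0.564, 5 positive and 10 negative, so a missing call does not show equal levels. With the replicate number as a block, 2 were higher and 1 lower. Col1a1, which encodes a type I collagen chain, had a mean of 14260 CPM in p21 cells, beside 14750 CPM in p16 cells.

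The inhibitor each group was given set the groups apart. Cdkn1a (chromosome 17, 29090976 to 29100727, plus strand) stood at 1218, 1087 and 1085 CPM in p21 replicates 1 to 3, at 429, 435 and 394 CPM in p16, and at 399, 383 and 317 CPM in control. All p21 libraries lay above all others, and the gene was 2.69-fold higher (log2 fold change 1.43 ± 0.0887 SE, adjusted p = 0.000191). For Cdkn2a (minus strand of chromosome 4, 89274471 to 89294653) the values were 113, 94.3 and 79.6 CPM in p21, at 1069, 1036 and 944 CPM in p16, and at 60.8, 68.8 and 59.6 CPM in control. The 3 p16 libraries stood far above the other 6, and the gene was 10.6-fold lower in p21 cells (log2 fold change -3.41 ± 0.124 SE, adjusted p = 2.45e-06). Counts of Cdkn2a do not separate p16 from the p19Arf transcript of the same locus, and vector-derived reads cannot be told from endogenous ones. Which inhibitor was given and how strongly it was raised cannot be told apart.

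The other CDK inhibitor genes moved as well. Cdkn2b, the neighbour of Cdkn2a that encodes the CDK4 and CDK6 inhibitor p15, stood at 97.7, 92.3 and 82.0 CPM in p21, 63.7, 66.9 and 58.0 CPM in p16 and 42.7, 45.0 and 39.5 CPM in control. The 3 groups did not overlap, and the gene was 1.44-fold higher in p21 cells (adjusted p = 0.00386). Cdkn2c, which encodes p18, was 1.78-fold lower (3.23 ± 0.61 against 5.74 ± 0.615 CPM, SD, n = 3, adjusted p = 0.00901). Cdkn1b, which encodes p27, was 1.43-fold lower (adjusted p = 0.0168), and Cdkn2d, which encodes p19, was 1.26-fold lower (adjusted p = 0.0219). Cdkn1c, which encodes p57, was not called (1.10-fold, adjusted p = 0.545). Apart from the overexpressed genes, 1 of 5 such genes was therefore higher and 3 were lower, where 6.19% and 6.64% of all genes tested were called. Leaving out p21 replicate 1, p21 replicate 2 or p16 replicate 3 ended the calls of Cdkn1b and Cdkn2d.

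Over all genes the differences were many and mostly small. Of 14572 genes, 902 were higher and 968 lower in p21 cells, which is 6.19% and 6.64% of genes tested and 12.8% together. Those shares are the background for every list count given below. The median fold was 1.27 among genes called higher and 1.28 among genes called lower, while the median log2 fold change of all genes was -0.007. At least 2-fold differences were called for 109 higher and 13 lower genes, and of these 95 and 10 had a mean log2 CPM under 2, so most large ratios belonged to weakly expressed genes. A difference larger than 1.2-fold was called for 88 higher and 148 lower genes. For 5876 genes (40.3%) the 95% interval lay within 1.25-fold either way, and 265 of these were among those called. For 7091 others (48.7%) the interval was wider and the gene was not called, so neither a difference nor its absence at that size was shown.

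The number of calls depended on single libraries, in fits that had no replicate term and fewer degrees of freedom. The same kind of fit stands behind every call described as lost without a library. Leaving out p21 replicate 1 left 600 calls, p21 replicate 2 922, p16 replicate 1 789, p16 replicate 2 875 and p16 replicate 3 959. The 2-fold count of 122 then fell to between 55 and 67, and the count beyond 1.2-fold, 236 in all, to between 86 and 136. Treating the replicate number as a block, which removes what same-numbered libraries share, gave 3496 calls, 1715 higher and 1781 lower, with 205 at least 2-fold and 623 beyond 1.2-fold. All 1870 genes were called again there in the same direction. Each of the 1870 also had p21 libraries that did not overlap the p16 libraries, a separation seen in 17.5% of all genes in the higher and 18.5% in the lower direction. The blocked calls and this separation come from the same counts as the calls, so they add no separate support.

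**Figure D1:**
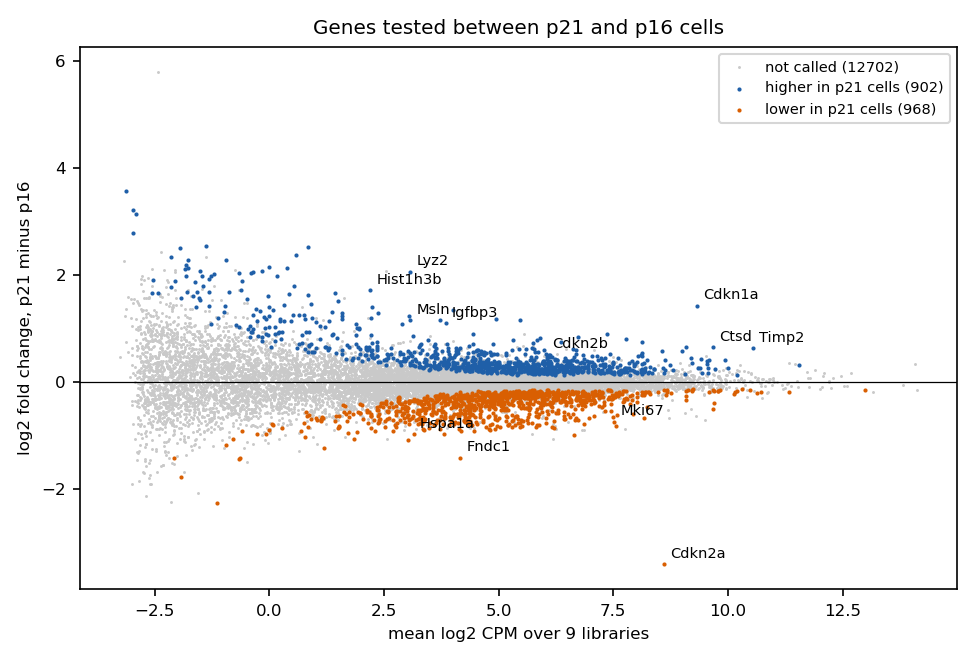
Log2 fold change of p21 minus p16 (vertical axis) against mean log2 CPM over 9 libraries (horizontal axis), 1 point per gene tested. The 902 genes higher in p21 cells are blue, the 968 lower are orange, and Cdkn2a and Cdkn1a stand far from the rest at their level of expression.

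Set beside the empty-vector cells, p16 cells mostly took an intermediate place. Among genes called higher, the group means ran p21 above p16 above control for 770 of 902 (85.4%). A call in that direction already places p21 above p16, so the background is all genes tested with p21 above p16. Among those, 4529 had p16 between, 1414 had control between and 1172 had control highest. Among genes called lower, the means ran control above p16 above p21 for 846 of 968 (87.4%). Of all genes tested with p16 above p21, 5022 had p16 between, 1276 had control between and 1159 had control lowest. In terms of single libraries, 502 of the higher and 614 of the lower genes kept all 3 groups apart with p16 between. Genes with control between the others were rarer: all p21 libraries above all control and all control above all p16 libraries for 18 called genes, and the reverse for 12.

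Cyclins, CDKs and their activators were lower or not called. Of 23 tested, 13 were lower (56.5%, against 6.64% of all genes tested) and 0 higher. The median log2 fold change was -0.38, and the replicate block added 2 higher calls. Ccnb1, which encodes cyclin B1, the partner of CDK1 at entry into mitosis, stood at 38.0, 42.8 and 44.9 CPM in p21, 72.8, 77.1 and 73.7 CPM in p16, and 107, 92.8 and 92.1 CPM in control. No library of one group reached another group, and p21 cells were 1.78-fold below p16 cells (adjusted p = 0.000564). Cdc25c, which encodes a phosphatase that activates CDK1, was 1.82-fold lower, and Ccnb2 1.75-fold lower (adjusted p = 0.000564 and 0.000591). Cdk4 and Cdk6, whose proteins p16 binds, and Ccnd1, which encodes their partner cyclin D1, were not called. Cdk4 was 1.08-fold lower (adjusted p = 0.106), Cdk6 1.04-fold higher (adjusted p = 0.727) and Ccnd1 1.17-fold higher (adjusted p = 0.434). These 3 were picked for that link to p16 after their values were seen, and a missing call does not show equal levels.

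Mitosis genes showed the broadest difference, 55 of 58 being lower (94.8%, against 6.64% of all genes tested) and 0 higher. Their median log2 fold change was -0.74, and leaving out any single library left 52 to 56 lower calls. Kif11, the motor protein that pushes spindle poles apart, stood at 30.1, 31.8 and 34.5 CPM in p21, 54.1, 54.1 and 56.2 CPM in p16, and 74.6, 71.9 and 71.5 CPM in control. The groups formed separate steps, and the gene was 1.71-fold lower in p21 than in p16 cells (adjusted p = 0.000361). Cenpa, the histone variant of centromeres, was 1.79-fold lower (23.3 ± 1.69 against 41.6 ± 1.22 CPM, adjusted p = 0.000386). Ckap2l, a spindle protein, was 1.76-fold lower and Ndc80, the kinetochore subunit that holds microtubules, 1.72-fold lower (adjusted p = 0.000386 for both). Nusap1, a spindle microtubule protein, was 1.88-fold lower (adjusted p = 0.000564). Cit, which encodes citron kinase of cytokinesis and is not in the list, was 1.89-fold lower (adjusted p = 0.000564). The members not called were Cenpk, Gtse1 and Pttg1, with adjusted p from 0.0535 to 0.475.

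Division genes were still read in both groups. Mki67, which encodes a proliferation antigen, stood at 92.3, 115 and 110.2 CPM in p21, 171, 191 and 167 CPM in p16, and 281, 248 and 275 CPM in control. The p21 libraries were lowest and the control libraries highest without overlap, and p21 cells were 1.67-fold below p16 cells (adjusted p = 0.00142). Summed over all mitosis genes listed, p16 cells held 2945 ± 66.8 CPM and p21 cells 1826 ± 137 CPM, against 3723 ± 307 CPM in control. In bulk RNA, fewer cycling cells and less of this RNA per cell cannot be told apart.

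The MuvB complex binds the cell cycle homology region (CHR), a short element next to the start site of many mitosis genes. The bases just upstream of the annotated start are shown for 2 mitosis genes, chosen because the element lies in them. They come from RefSeq on GRCm38.p6, 5′ to 3′ on the gene's strand, for Kif11 at chr19:37376232-37376381 (plus strand) and Ckap2l at chr2:129297213-129297362 (minus strand), with the element in capitals.
Kif11: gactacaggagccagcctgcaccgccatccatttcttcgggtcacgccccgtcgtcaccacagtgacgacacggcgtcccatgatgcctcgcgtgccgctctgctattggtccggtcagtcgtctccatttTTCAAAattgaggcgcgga
Ckap2l: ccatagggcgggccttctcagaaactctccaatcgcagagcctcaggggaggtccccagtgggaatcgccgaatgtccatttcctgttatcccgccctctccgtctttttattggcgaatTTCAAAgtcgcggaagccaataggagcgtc
The element begins 19 bases before the start of Kif11 and 30 bases before that of Ckap2l. Promoter windows of 250 bases before to 50 after the start were at hand for 11437 of the genes tested. TTTGAA or TTCGAA, read on both strands, occurred in 36 of 53 mitosis promoters (67.9%), in 28.6% of promoters of genes called lower, in 15.7% of genes called higher and in 16.5% of all. It also occurred in 19 of 32 promoters of histone genes (59.4%), which were higher or not called, so the letters were common in lists of both directions. CCAAT, bound by NF-Y, occurred in 75.5% of the mitosis promoters against 42.6% of all. A match describes these letters only.

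**Figure D2:**
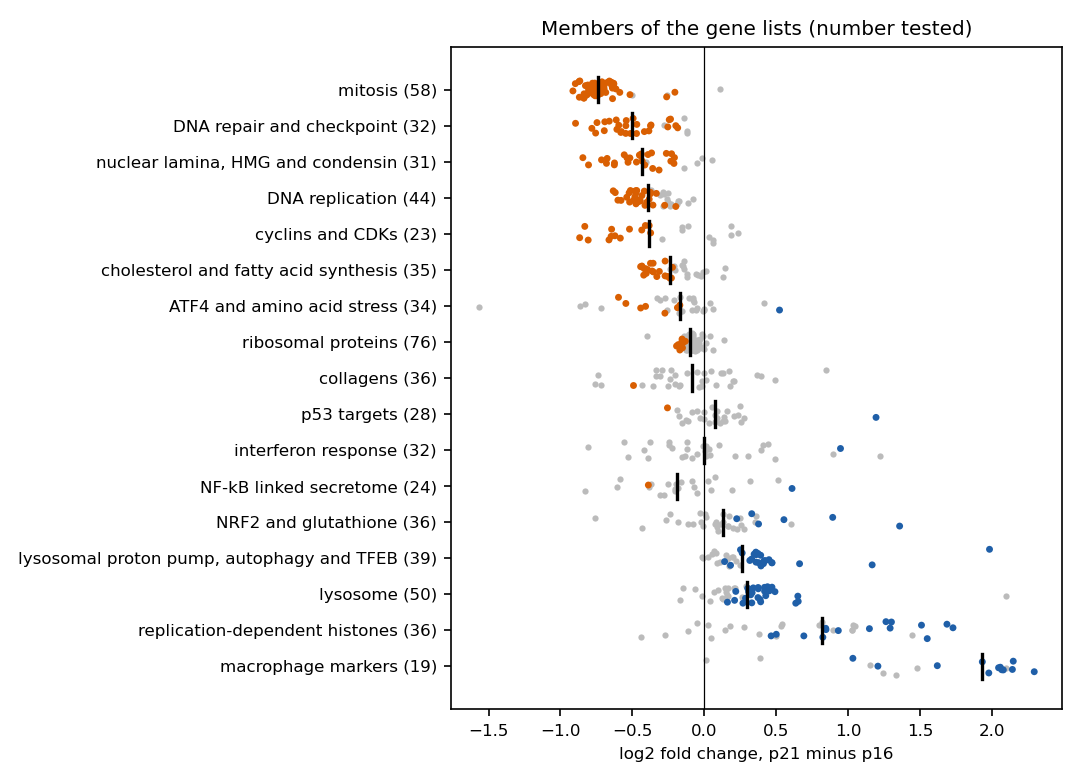
Log2 fold change of p21 minus p16 (horizontal axis) for each tested member of 17 gene lists (rows, with the number tested). Orange and blue points were called lower and higher, grey points were not called, and the black bar is the median, lowest for mitosis at -0.74 and highest for macrophage markers at 1.93.

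Regulators of this programme differed in part. Of 20 pocket protein, E2F and MuvB genes, 6 were lower and 1 higher (median -0.14), with 2 lower calls without p21 replicate 1 and 3 without p16 replicate 1 or p16 replicate 2. Foxm1, the transcription factor of late cell cycle genes, was 1.49-fold lower (50.1 ± 2.61 against 74.3 ± 1.56 CPM, adjusted p = 0.00254). Lin9, a MuvB subunit, was 1.44-fold lower (adjusted p = 0.00498). Rbl1, which encodes p107, was 1.44-fold lower (adjusted p = 0.0087), and without p21 replicate 1 its adjusted p was 0.0503. E2f6, a repressor that works apart from the retinoblastoma proteins, was 1.25-fold higher (71.4 against 57.3 CPM, adjusted p = 0.011). Rb1 itself was not called (13.2 ± 1.08 against 12.6 ± 0.979 CPM, adjusted p = 0.677, 95% interval of the ratio 0.906 to 1.22).

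DNA replication genes lay lower in p21 cells throughout, though by less than mitosis genes. All 44 had a negative log2 fold change, with a median of -0.39. Of these, 29 were called lower (65.9%, against 6.64% of all genes tested). The count fell to 12 without p21 replicate 1, 14 without p16 replicate 2, and 16 without p21 replicate 2, p16 replicate 1 or p16 replicate 3. Uhrf1, which keeps DNA methylation in step with replication, stood at 45.5, 50.2 and 53.5 CPM in p21, 73.7, 70.9 and 78.3 CPM in p16, and 120.1, 104 and 105 CPM in control. The 3 groups were apart, and the gene was 1.49-fold lower (adjusted p = 0.00234). Rfc4, a subunit of the clamp loader, was 1.45-fold lower, the helicase factor Cdc45 1.43-fold lower and the DNA ligase gene Lig1 1.39-fold lower (adjusted p = 0.0044, 0.00335 and 0.0048).

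Of 32 DNA repair and checkpoint genes, all with negative log2 fold changes, 28 were lower (87.5%, against 6.64% of all genes tested, median -0.50). The count was 13 without p21 replicate 1 and 18 without p16 replicate 2. Brca1, a central factor of repair by homologous recombination, stood at 9.10, 11.2 and 10.9 CPM in p21, 17.5, 17.8 and 17.0 CPM in p16, and 22.9, 20.5 and 21.8 CPM in control. The p21 libraries were all lowest, and the gene was 1.68-fold lower (adjusted p = 0.00117). Fancd2 and Fanci, the paired proteins at the centre of the Fanconi crosslink repair pathway, were 1.86-fold and 1.72-fold lower (adjusted p = 0.00169 and 0.0028). Timeless, which protects replication forks, was 1.51-fold lower (adjusted p = 0.00158).

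E2F factors bind TTCCCGC and related letters near the start of replication and repair genes. The upstream bases of Uhrf1 are shown as one of the promoters that hold this motif, at chr17:56303187-56303336 (plus strand, GRCm38.p6, RefSeq), with the motif in capitals.
Uhrf1: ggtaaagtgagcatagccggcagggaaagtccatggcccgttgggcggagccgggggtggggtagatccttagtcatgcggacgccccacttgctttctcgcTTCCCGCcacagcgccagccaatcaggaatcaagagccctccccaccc
It begins 48 bases before the start. The motif occurred, on either strand, in 14 of 35 replication promoters (40%) and 10 of 22 repair promoters (45.5%), against 9.55% of all genes tested and 7.55% of mitosis promoters. Genes called lower held it in 20.8% and genes called higher in 6.97%.

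Replication-dependent histone genes went the other way from the rest of the S-phase genes. These genes supply histones for new DNA, and their messages normally end in a stem-loop in place of a poly(A) tail. Of 65 listed, 8 had no read in any library and 36 were tested. Of those tested, 15 were higher (41.7%, against 6.19% of all genes tested) and 0 lower (median 0.82). Without p21 replicate 1 the count was 9. Hist1h2bc, the most abundant of those named, stood at 99.8, 96.8 and 84.0 CPM in p21, 54.6, 51.2 and 52.8 CPM in p16, and 31.4, 34.2 and 31.1 CPM in control. Each group lay apart, and the gene was 1.77-fold higher (adjusted p = 0.000386). Hist1h3b, which encodes a histone H3, stood at 9.54, 10.97 and 8.42 CPM in p21, 2.72, 3.20 and 2.81 CPM in p16 and 1.54, 1.09 and 1.06 CPM in control. It was 3.32-fold higher (log2 fold change 1.73 ± 0.16 SE, adjusted p = 0.000564). Hist1h4h was 2.85-fold and Hist1h2ab 2.46-fold higher (adjusted p = 0.00131 and 0.00117).

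Summed over the listed genes, histone transcripts stood at 213 ± 9.58 CPM in p21, 124 ± 2.5 CPM in p16 and 84.4 ± 3.45 CPM in control. The library kit captures RNA by its poly(A) tail, so these counts read tailed histone messages, and whether total histone messages differed was not tested. Near-identical copies make single members uncertain. Factors that make or trim histone messages were 0 higher and 4 lower of 10. Casp8ap2, which helps form the bodies where histone messages are made, was 1.28-fold lower (adjusted p = 0.00929). Eri1, an exonuclease that trims the stem-loop end, was 1.28-fold lower (adjusted p = 0.0181), Lsm11, a subunit of the processing particle, 1.18-fold lower (0.037), and Npat, the activator of histone gene transcription, 1.17-fold lower (0.0419). Without p21 replicate 1, p21 replicate 2, p16 replicate 1 or p16 replicate 2 there was 1 such call, and without p21 replicate 3 there were 2.

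The upstream bases of Hist1h3b are shown because both of its CCAAT boxes lie in them, at chr13:23752195-23752344 (plus strand, GRCm38.p6, RefSeq), with the boxes in capitals.
Hist1h3b: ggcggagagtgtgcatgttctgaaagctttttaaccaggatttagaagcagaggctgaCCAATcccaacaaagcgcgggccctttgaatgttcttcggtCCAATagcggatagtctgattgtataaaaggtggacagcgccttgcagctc
The boxes begin 92 and 51 bases before the start. CCAAT occurred on either strand in 29 of 32 promoters of tested histone genes (90.6%), the letters TTTGAA or TTCGAA in 19 (59.4%) and the E2F motif in 2 (6.25%).

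Chromatin and nuclear envelope genes were lower. Of 31 genes for the lamina, HMG proteins, condensin and heterochromatin, 26 were lower (83.9%, against 6.64% of all genes tested) and 0 higher. Their median was -0.43, and 17 were lower without p21 replicate 1. Lmnb1, which encodes lamin B1, stood at 41.3, 49.2 and 42.3 CPM in p21, 63.4, 68.9 and 60.5 CPM in p16, and 105, 87.7 and 83.6 CPM in control. The groups did not overlap, and it was 1.45-fold lower (adjusted p = 0.00882). Hmgb2, a DNA-bending protein, was 1.44-fold lower (45.9 ± 5.06 against 66.3 ± 3.77 CPM, adjusted p = 0.00396). The condensin subunits, which compact mitotic chromosomes, were lower still: Ncapg 1.80-fold, Ncapg2 1.75-fold, Ncapd2 1.64-fold and Smc4 1.597-fold (adjusted p = 0.000564, 0.000668, 0.000985 and 0.000784). Among 15 Polycomb genes, 3 were lower (20%, against 6.64% of all genes tested). They were Phc1 (1.38-fold, adjusted p = 0.00276), Cbx2 (1.31-fold, 0.015) and Suz12 (1.17-fold, 0.0251). There was 1 such call without p21 replicate 1 or p16 replicate 1, where Cbx2 and Suz12 were lost.

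**Figure D3:**
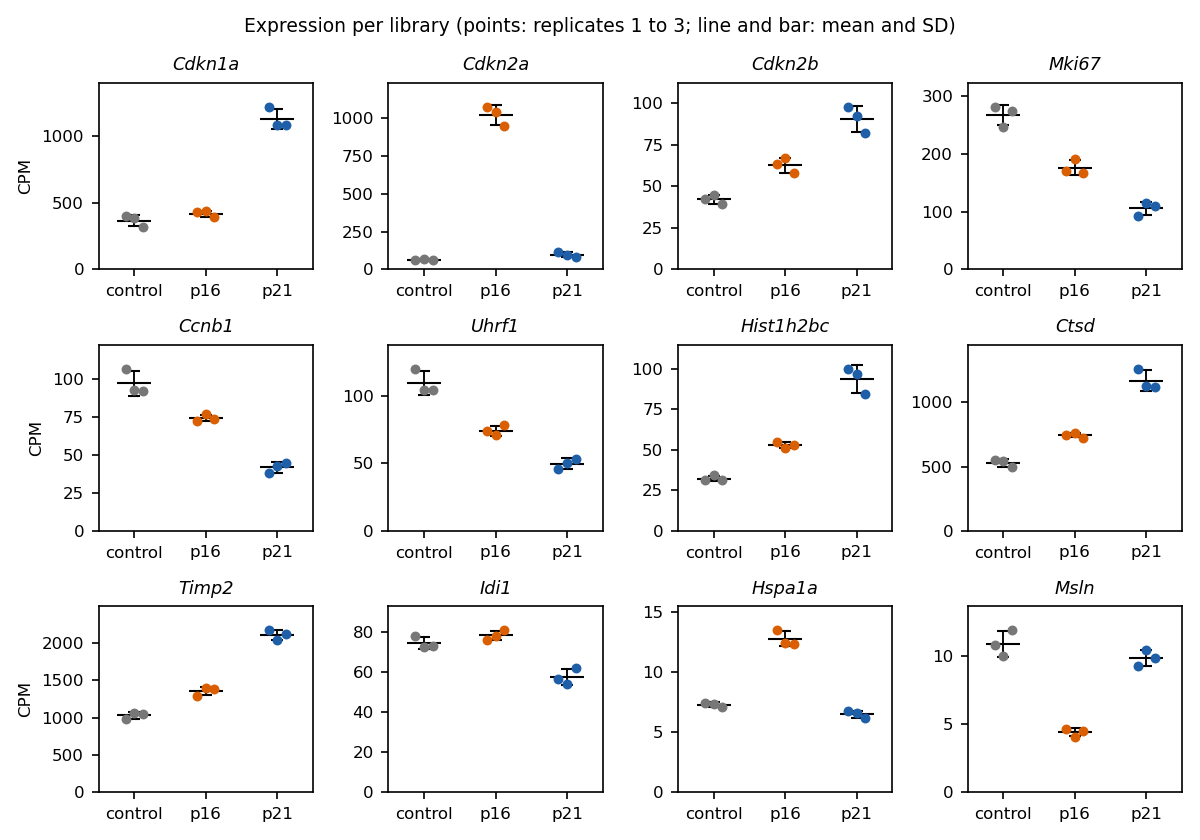
CPM of 12 genes in each library (points, replicates 1 to 3 from left to right) with the mean and SD of 3 libraries per group. For Ccnb1 and Uhrf1 the groups descend from control through p16 to p21, for Hist1h2bc, Ctsd and Timp2 they ascend, and for Hspa1a and Msln p16 stands apart from the other 2 groups.

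Lysosome genes were higher in p21 cells. Of 50 tested, 29 were higher (58%, against 6.19% of all genes tested) and 0 lower. The median log2 fold change was 0.30, with 20 to 34 higher calls when single libraries were left out. Ctsd, which encodes the protease cathepsin D, stood at 1262, 1127 and 1117 CPM in p21, 748, 759 and 727 CPM in p16, and 553, 545 and 496 CPM in control. The groups were apart, and the gene was 1.57-fold higher (adjusted p = 0.000564). Ctsl, which encodes cathepsin L, was 1.57-fold higher (754 ± 27.4 against 480 ± 11.9 CPM, adjusted p = 0.000361). Npc2, which moves cholesterol out of lysosomes, and Psap, the precursor of the saposins that help break down sphingolipids, were both 1.34-fold higher (adjusted p = 0.00111 and 0.00142). Glb1, whose beta-galactosidase is the common stain for senescent cells, was 1.31-fold higher (88.7 ± 5.66 against 67.6 ± 1.08 CPM, adjusted p = 0.00254).

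The proton pump that acidifies lysosomes and the autophagy genes followed. Of 39 tested, 23 were higher (59%, against 6.19% of all genes tested) and 0 lower (median 0.26). Higher calls numbered 13 without p21 replicate 1 and 15 without p21 replicate 2, p16 replicate 1 or p16 replicate 3. Sqstm1, the autophagy cargo receptor p62, stood at 526, 493 and 458 CPM in p21, 377, 374 and 357 CPM in p16, and 316, 336 and 313 CPM in control. It was 1.33-fold higher without overlap between the groups (adjusted p = 0.00248). Map1lc3b, the autophagosome protein LC3B, was 1.34-fold higher, and the pump subunits Atp6v1e1 and Atp6v0e were 1.37-fold and 1.30-fold higher (adjusted p = 0.00103, 0.00347 and 0.0024). Gpnmb, a lysosome-linked membrane glycoprotein, had the largest ratio of those named, 2.25-fold (23.5 against 10.5 CPM, adjusted p = 0.00617).

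TFEB and its relatives bind the CLEAR element, TCACGTGA, near lysosome genes. The upstream bases of Ctsd, which hold it 99 bases before the start, are shown from chr7:142387828-142387977 (minus strand, GRCm38.p6, RefSeq), with the element in capitals.
Ctsd: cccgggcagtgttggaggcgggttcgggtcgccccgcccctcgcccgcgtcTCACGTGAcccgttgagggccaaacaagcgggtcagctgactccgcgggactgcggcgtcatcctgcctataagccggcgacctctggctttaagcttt
This strict form occurred in 3 of 41 lysosome promoters (7.32%) and 4 of 31 pump and autophagy promoters (12.9%), against 2.05% of all. Tfeb itself was not called (1.17-fold higher, adjusted p = 0.309), and it is named here after its value was seen.

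Markers of macrophages moved in the same direction as the lysosome genes. Of 22 listed, 19 were tested, with a median log2 fold change of 1.93. Of those tested, 12 were higher (63.2%, against 6.19% of all genes tested) and 0 lower. Without p16 replicate 1 or p16 replicate 2 the count was 7. The summed level of the list was 33.1, 44.4 and 61.3 CPM in p21, 12.8, 16.2 and 19.3 CPM in p16, and 16.3, 18.2 and 19.9 CPM in control. All p21 libraries were above the rest, and p16 and control overlapped. Lyz2, which encodes lysozyme, stood at 12.3, 16.3 and 23.3 CPM in p21, 2.97, 4.52 and 4.86 CPM in p16 and 3.13, 3.87 and 4.64 CPM in control, and was 4.19-fold higher (adjusted p = 0.0017). The scavenger receptors Msr1 and Mrc1 were 4.90-fold and 3.07-fold higher, at means of 0.947 and 1.55 CPM in p21 cells (adjusted p = 0.00429 and 0.00395). Ptprc, the pan-leukocyte marker CD45, was 2.31-fold higher at 0.746 CPM (adjusted p = 0.0414). Other core markers were low but present. Csf1r, the receptor for macrophage growth factor, stood at 2.16, 3.67 and 4.22 CPM in p21 cells. It stood at 1.11, 1.79 and 1.98 CPM in p16 and 1.75, 2.07 and 2.02 CPM in control, without overlap with p21. Cd14 stood at 2.23, 2.965 and 2.84 CPM in p21 and 3.41, 2.435 and 2.12 CPM in p16 cells, which overlapped. Cd68 stood at 2.175, 2.29 and 3.36 CPM in p21 and 1.835, 2.01 and 2.12 CPM in p16 cells. Emr1, which encodes F4/80, stood at 0.661, 0.613 and 1.33 CPM in p21 and 0.148, 0.381 and 0.552 CPM in p16 cells and was not called. Cd163, Aif1 and Fcgr1 were at or near 0, with no library above 0.175 CPM. Csf1r, Cd14, Cd68, Emr1 and these 3 are named after their values were seen. Whether macrophages were present, and what part they had in the lysosome, complement, Gpnmb, Apoe, Spp1 and Mmp12 differences, was not tested.

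**Figure D4:**
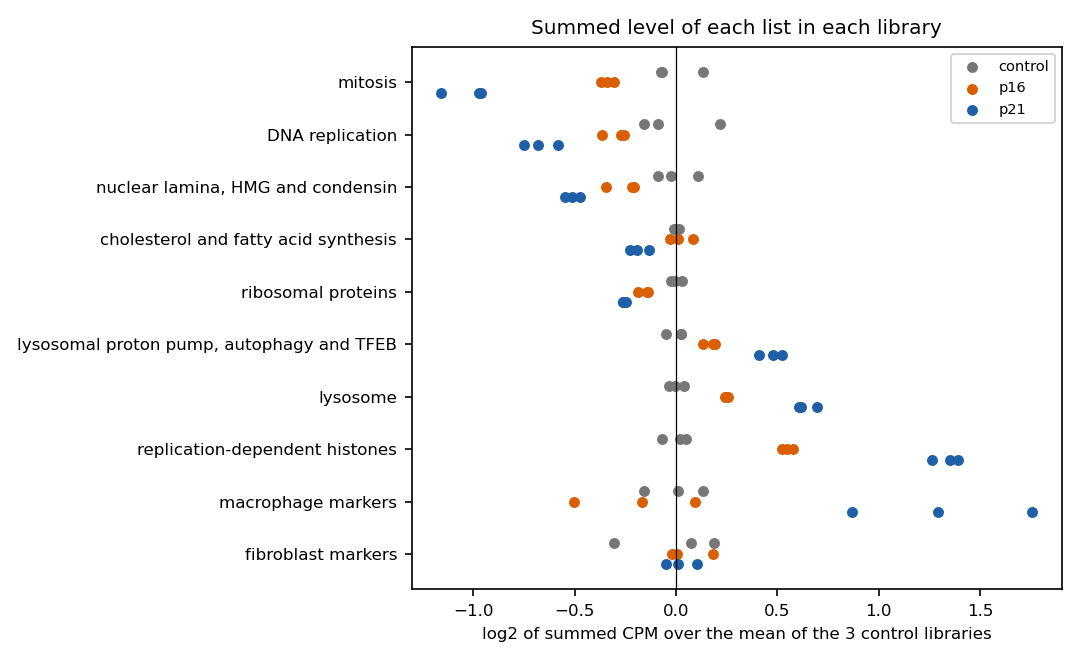
Log2 of the summed CPM of 10 gene lists in each library, relative to the mean of the 3 control libraries (horizontal axis), with 3 points per group. The p21 libraries lie below p16 for mitosis and above it for lysosome, histone and macrophage genes, while the fibroblast markers overlap.

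Complement genes were called higher in 4 of 18 cases (22.2%, against 6.19% of all genes tested) and lower in 0. With the replicate block, 9 were higher. The 4 were C1qa, C1qb and C1qc, which also sit in the macrophage list, and C2, the protease of the classical pathway. The mean of C1qa was 1.88 CPM in p21 cells, beside 0.418 CPM in p16 cells, 4.43-fold higher (adjusted p = 0.0114), and without p16 replicate 1 or p16 replicate 2 none of the 4 was called, while 2 were without p21 replicate 3 or control replicate 2. Apoe, an apolipoprotein made by many macrophages, was 2.65-fold higher (8.53 against 3.21 CPM, adjusted p = 0.0161). Its call was lost without p16 replicate 1 or p16 replicate 2 (adjusted p up to 0.0678).

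Cytokine genes of the secretome were called at a share near or below that of all genes. Of 24 genes of the NF-kB-linked secretome, 1 was higher (Icam1, a leukocyte adhesion molecule) and 1 lower (Nfkb1). That is 8.33%, against 12.8% of all genes tested. The median was -0.19, and the replicate block gave 3 higher and 2 lower. Il6 stood at 1.69, 1.65 and 3.26 CPM in p21, 2.23, 2.45 and 2.66 CPM in p16, and 1.24, 0.962 and 1.44 CPM in control. The p21 and p16 libraries overlapped (adjusted p = 0.737, 95% interval of the ratio 0.591 to 1.35). Of the 24 genes, 22 were not called, with 17 of 24 log2 fold changes negative. Csf1, the macrophage growth factor, was not called (adjusted p = 0.414), and the replicate block gave 0.0279. Ccl2, a monocyte attractant, was 1.14-fold higher and not called (37.3 ± 2.41 against 32.6 ± 1.94 CPM, adjusted p = 0.077). The Icam1 call was lost without any p21 or p16 library other than p21 replicate 2, and that of Nfkb1 without p21 replicate 1. Without p21 replicate 3, 2 genes were lower.

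Among 18 other chemokines and interleukins, Cxcl14 alone was called (5.56%, against 12.8% of all genes tested), with 4 higher under the replicate block. Cxcl14, a chemokine that draws monocytes and other immune cells, stood at 75.1, 52.5 and 66.2 CPM in p21, 46.5, 37.6 and 41.7 CPM in p16, and 20.2, 25.6 and 25.8 CPM in control. The groups did not overlap, and it was 1.54-fold higher (adjusted p = 0.0193), but the call was lost without p21 replicate 1, p16 replicate 2 or p16 replicate 3 (adjusted p up to 0.085). Cxcl12, the most abundant chemokine listed, stood at 213, 271 and 452 CPM in p21 and 349, 430 and 710 CPM in p16 replicates 1 to 3. Each p21 library was below the p16 library of its number, but the groups overlapped. It was 1.59-fold lower and not called (adjusted p = 0.257), and the replicate block gave an adjusted p of 2.41e-05.

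Growth factors and insulin-like growth factor binding proteins were called in 4 of 44 cases (9.09%, against 12.8% of all genes tested). There were 3 higher and 1 lower, or 11 and 3 with the replicate block. Igfbp3, which binds insulin-like growth factors outside the cell, stood at 22.3, 24.7 and 25.2 CPM in p21, 9.72, 10.2 and 13.7 CPM in p16 and 7.93, 6.62 and 8.83 CPM in control. It was 2.15-fold higher (adjusted p = 0.0018). Grn, the precursor of granulins, was 1.29-fold higher (adjusted p = 0.00414), and Bdnf, a neurotrophin, 1.34-fold higher (adjusted p = 0.042). The Bdnf call was lost without any p21 or p16 library other than p21 replicate 3 and without control replicate 2 (adjusted p up to 0.136). Cyr61, a matrix-bound growth regulator, was 1.17-fold lower (adjusted p = 0.00824, and 0.0503 without p21 replicate 1). Lower calls numbered 3 without p21 replicate 3 or control replicate 1 and 2 without control replicate 3. Gas6, the ligand of the TAM receptors, stood at 220, 170 and 211 CPM in p21, 157, 147 and 179 CPM in p16 and 89.8, 79.7 and 93.6 CPM in control. Its p21 and p16 libraries overlapped and it was not called (1.24-fold, adjusted p = 0.0854), whereas the replicate block gave 0.00265.

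Metalloproteinases and their inhibitors were higher in 6 and lower in 3 of 33 cases (27.3% together, against 12.8% of all genes tested). With the replicate block the counts were 10 and 5. Timp2, an inhibitor of matrix metalloproteinases, stood at 2166, 2039 and 2115 CPM in p21, 1287, 1389 and 1387 CPM in p16, and 977, 1064 and 1043 CPM in control. These steps did not overlap, and it was 1.56-fold higher (adjusted p = 0.000386). Timp1 was 1.33-fold higher (987 ± 46.7 against 742 ± 25.3 CPM, adjusted p = 0.00429). Adam15, a membrane metalloproteinase, was 1.38-fold higher (205 against 149 CPM, adjusted p = 0.00155). These 3 remained called when any single library was left out. The proteases Mmp3, Mmp12 and Mmp13 were higher too, at low levels: Mmp3 averaged 2.92 and 1.23 CPM and Mmp12 0.893 and 0.150 CPM in p21 and p16 cells. The Mmp12 call was lost without any 1 of the p21 or p16 libraries (adjusted p up to 0.117). Leaving out any p21 or p16 library other than p21 replicate 3 left 3 higher calls. The lower genes were the proteases Adam12, Adamts5 and Adamts9, of which 0 were called without p21 replicate 1, p21 replicate 2, p16 replicate 2 or p16 replicate 3, and 1 without p16 replicate 1 or control replicate 2.

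Of 17 serpins and plasminogen activators, 3 were higher and 1 lower (7 and 2 with the replicate block). Serpinb9b, a granzyme-inhibitor-like serpin with close copies in its family, was 2.27-fold higher (55.5 ± 6.39 against 24.5 ± 2.75 CPM, adjusted p = 0.00203). It stayed called whichever single library was left out. Serpinh1, a collagen chaperone, was 1.14-fold lower (adjusted p = 0.0298), and without any p21 or p16 library other than p21 replicate 2 this was lost. Without p21 replicate 1, p21 replicate 2, p16 replicate 1, p16 replicate 2 or control replicate 2 there was 1 higher call.

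Many sterol synthesis genes were lower in p21 cells, and p16 cells often did not stand between the other groups. Of 35 genes for cholesterol and fatty acid synthesis, 19 were lower (54.3%, against 6.64% of all genes tested) and 0 higher (median -0.24). Without p21 replicate 1, 9 were lower. In 10 of the 19 the p16 mean was at or above the control mean. Idi1, an isomerase of the isoprenoid pathway, stood at 56.6, 54.1 and 62.1 CPM in p21, 76.1, 78.0 and 80.8 CPM in p16, and 77.9, 72.6 and 73.0 CPM in control. The p21 libraries were lowest while p16 and control overlapped, and the gene was 1.36-fold lower (adjusted p = 0.00235). Msmo1, a sterol demethylase, was 1.28-fold lower (adjusted p = 0.00308), and every p16 library was above every control library. Fads2, a fatty acid desaturase, and Fdps, a prenyl transferase, were 1.35-fold and 1.29-fold lower (adjusted p = 0.00213 and 0.0024). Of the 24 promoters at hand, 1 held the sterol element TCACNCCAC (4.17%, against 1.41% of all) and 20 held CCAAT (83.3%).

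Genes of the ATF4 amino acid response were lower in 7 (20.6%, against 6.64% of all genes tested) and higher in 1 of 34 cases. With the replicate block, 13 were lower. Psat1, an enzyme of serine synthesis, stood at 156, 168 and 184 CPM in p21, 251, 247 and 271 CPM in p16, and 278, 310 and 330 CPM in control. The groups were separate, and it was 1.51-fold lower (adjusted p = 0.00209). Slc7a5, a transporter of large amino acids, was 1.46-fold lower (adjusted p = 0.0108, and 0.0605 without p21 replicate 1). Nupr1, a stress-induced chromatin protein, was 1.44-fold higher (adjusted p = 0.00266). Lower calls numbered 1 without p21 replicate 1, 3 without p21 replicate 2, p16 replicate 1 or p16 replicate 2, 4 without p16 replicate 3 and 11 without control replicate 1.

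Ribosomal protein genes were lower in 11 of 76 cases (14.5%, against 6.64% of all genes tested) and higher in 0, by small amounts (median -0.10). Rpl3 was 1.14-fold lower (990 against 1131 CPM, adjusted p = 0.0114). Its call was lost without p21 replicate 1 or p16 replicate 1 (adjusted p up to 0.0667). The count was 21 with the replicate block, 25 with DESeq2 and 16 with scaling by library size alone. It was 0 without p21 replicate 1 or p16 replicate 1, 1 without p16 replicate 3, 2 without p21 replicate 2, 3 without control replicate 2, 4 without p16 replicate 2 and 7 without p21 replicate 3. Of 36 ribosome biogenesis genes, 1 was lower, or 6 with the replicate block, 5 without control replicate 1 and 2 without p21 replicate 2 or control replicate 3.

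Antioxidant genes linked to NRF2 were higher in 6 of 36 cases (16.7%, against 6.19% of all genes tested). With the replicate block, 13 were higher and 3 lower. Hmox1, which breaks down haem, stood at 286, 292 and 193 CPM in p21, 150, 152 and 114 CPM in p16, and 118, 91.5 and 82.1 CPM in control. The p21 libraries were highest, with replicate 3 lowest in each group, and it was 1.86-fold higher (adjusted p = 0.0148). The call was lost without p21 replicate 1, p21 replicate 2 or p16 replicate 3 (adjusted p up to 0.0666). Aldh1a1, an aldehyde dehydrogenase, was 2.56-fold higher at a mean of 2.02 CPM (adjusted p = 0.0087). Calls numbered 1 without p21 replicate 1, 2 without p21 replicate 2, p16 replicate 1 or p16 replicate 3, and 10 without control replicate 1.

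Matrix glycoprotein genes were called at a share near that of all genes. Of 55 glycoprotein and elastic fibre genes, 2 were higher and 6 lower (14.5% together, against 12.8% of all genes tested). The replicate block called 6 higher and 16 lower. Fbln1, the extracellular glycoprotein fibulin 1, stood at 18.1, 18.3 and 23.7 CPM in p21, 32.8, 34.6 and 40.1 CPM in p16, and 39.0, 40.5 and 47.2 CPM in control. The p21 libraries were apart from both other groups, which overlapped, and it was 1.80-fold lower (adjusted p = 0.00307). Fndc1, a fibronectin domain protein outside this list, was the gene furthest below p16 after Cdkn2a once weakly expressed genes (mean log2 CPM under 2) were set aside (2.66-fold, 8.65 ± 1.18 against 22.95 ± 4.81 CPM, adjusted p = 0.00679). Abi3bp, a matrix protein, was 1.55-fold lower (adjusted p = 0.00281). Ecm1 was 1.49-fold higher (532 against 356 CPM, adjusted p = 0.000564). Spp1, which encodes osteopontin, was 1.51-fold higher (adjusted p = 0.0121, and 0.0534 without p16 replicate 2). Lower calls numbered 2 without p21 replicate 1 and 3 without p16 replicate 1 or p16 replicate 2. Higher calls numbered 4 without control replicate 1 and 1 without p16 replicate 2. Of 36 collagens, 1 was called (2.78%), Col6a3 (lower). That call was lost without any p21 or p16 library and without control replicate 2, while 4 were lower with the replicate block.

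Of 31 contractile genes 3 were higher and 3 lower, or 8 and 6 with the replicate block. Acta1, skeletal muscle actin, was 1.75-fold higher (349 ± 55.5 against 200 ± 7.24 CPM, adjusted p = 0.00595). Myh11, the smooth muscle myosin heavy chain, was 1.45-fold higher (adjusted p = 0.00926). Srf, the transcription factor that drives many actin genes, was 1.18-fold lower (adjusted p = 0.00824). Without p21 replicate 3, 7 were higher, and without p21 replicate 1, 1 was lower. Des, which encodes the muscle filament protein desmin, stood at 231, 193 and 204 CPM in p21, 158, 154 and 148 CPM in p16, and 79.8, 105 and 77.0 CPM in control, without overlap. The skeletal muscle markers, Acta1 and Des included, summed to 565.5 ± 57 CPM in p21, 358.9 ± 10.9 CPM in p16 and 205.4 ± 21.5 CPM in control. Nearly all of that sum came from Acta1 and Des. The muscle regulators Myod1, Myog, Myf5 and Myf6 stayed at or below 0.0581 CPM in every library, and the part of muscle cells in these differences was not tested.

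Calls among developmental genes depended on the handling of the replicate number. Gli2, a Hedgehog transcription factor, stood at 3.37, 3.11 and 5.27 CPM in p21, 7.16, 7.06 and 10.7 CPM in p16, and 7.73, 11.2 and 16.9 CPM in control. Replicate 3 was highest in each group, and the gene was 2.13-fold lower (adjusted p = 0.0459). The call was lost without any p21 or p16 library other than p21 replicate 3 and without control replicate 2 (adjusted p up to 0.167), while the block gave 0.000301. Dlk1, an imprinted Notch-like ligand, was 1.99-fold lower, at 51.4 ± 10.6 CPM beside 102 ± 27.9 CPM (adjusted p = 0.0458, and 6.69e-05 with the block), a call lost without any p21 or p16 library and without control replicate 2 (adjusted p up to 0.172). Notch1 was 1.28-fold lower (adjusted p = 0.0043) and stayed called. Of 37 HOX genes 1 was higher, but the block called 9 higher and 11 lower. That 1 call was lost without any p21 or p16 library other than p21 replicate 3 and without control replicate 2, and without p21 replicate 3 there were 3. Col2a1, a cartilage collagen, was 1.64-fold lower and not called (adjusted p = 0.136), and the block gave 5.3e-05. Of 29 imprinted genes 1 was higher and 3 were lower, or 5 and 8 with the block. Lower imprinted calls numbered 0 without p21 replicate 1, p16 replicate 1 or p16 replicate 3, and 1 without p21 replicate 2 or p16 replicate 2.

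Targets of p53 were near the background of all genes. Of 28 tested, 1 was higher and 1 lower (7.14% together, against 12.8% of all genes tested, median 0.07). The replicate block gave 6 and 2. Perp, a desmosomal p53 target, was 2.29-fold higher, at 6.86 CPM beside 2.998 CPM in p16 cells (adjusted p = 0.011, and 0.0507 without p16 replicate 1). Bbc3, which encodes the death protein PUMA, was 1.19-fold lower (adjusted p = 0.0312), which did not hold without any 1 of the p21 or p16 libraries or control replicate 2. Higher calls numbered 2 without control replicate 1 or control replicate 3. Mdm2, the main inhibitor of p53, stood at 211, 205 and 193 CPM in p21 and 198, 203 and 171 CPM in p16 cells, overlapping (1.07-fold, adjusted p = 0.696). Gdf15, a stress cytokine, was not called (1.10-fold, adjusted p = 0.439, 95% interval of the ratio 0.930 to 1.31), nor was Trp53 (1.08-fold lower, adjusted p = 0.253, interval 0.840 to 1.02).

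Interferon response genes were called in 1 of 32 cases (3.12%, against 12.8% of all genes tested). That gene was Ifit3, higher, lost without p21 replicate 1, p21 replicate 2, p16 replicate 1 or p16 replicate 2. Lower calls numbered 5 with the replicate block, 2 without control replicate 1 and 1 without p21 replicate 3 or control replicate 3. Antigen presentation and immune recognition genes were called by edgeR in 0 of 26, with 4 at an unadjusted p under 0.05 and 1 called by DESeq2, and the replicate block called 1 lower. Calr, a chaperone of MHC class I and the most abundant of them, had means of 1446 CPM in p21 cells and 1417 CPM in p16 cells (adjusted p = 0.822).

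A small set of genes set p16 apart from both other groups. Msln, the mesothelial surface protein mesothelin, stood at 4.62, 4.09 and 4.52 CPM in p16, 9.27, 10.5 and 9.87 CPM in p21 and 10.8, 10.0 and 11.9 CPM in control. All p16 libraries were below the other 6, and it was 2.24-fold higher in p21 cells (adjusted p = 0.000386). Hspa1a, an inducible heat shock chaperone, stood at 13.5, 12.5 and 12.4 CPM in p16, 6.76, 6.60 and 6.18 CPM in p21 and 7.43, 7.39 and 7.07 CPM in control. It was 1.96-fold lower in p21 cells, with control between the groups (adjusted p = 0.000386). Its close copy Hspa1b was 1.35-fold lower (adjusted p = 0.0168), and leaving out p21 replicate 1, p16 replicate 1 or p16 replicate 2 ended that call (adjusted p up to 0.0731). Anxa8, an annexin, was 1.53-fold higher in p21 cells, at 57.7 ± 5.07 against 37.7 ± 3.13 CPM, with control at 49.5 CPM between them (adjusted p = 0.00209). Itga4, an integrin chain, was 1.53-fold higher (adjusted p = 0.00609), also with control between. Since the p16 libraries may have been prepared apart, p16 and preparation cannot be told apart in these genes.

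Among genes that are not weakly expressed, some of the widest differences lay outside these groups. Tmem151a, a membrane protein, stood at 31.9, 28.3 and 25.6 CPM in p21, 11.9, 12.4 and 9.27 CPM in p16, and 8.29, 8.63 and 8.45 CPM in control, and was 2.56-fold higher (adjusted p = 0.000386). Dsp, which encodes the desmosome protein desmoplakin, was 2.34-fold higher (15.0 ± 3.2 against 6.40 ± 1.41 CPM, adjusted p = 0.00857). Among keratins, Krt19 ranged from 37.4 to 78.1 CPM over the 9 libraries and was not called, while Krt5 and Krt14 stayed at or below 0.044 CPM. Slc43a1, an amino acid transporter, was 1.89-fold lower (adjusted p = 0.00962, and 0.0539 without p21 replicate 1).

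The other signalling and stress lists held few calls, and these moved with single libraries. TGF-beta, BMP and Wnt genes were higher in 3 and lower in 1 of 47 cases (8.51% together, against 12.8% of all genes tested). With the replicate block, 9 were higher and 5 lower. Without p21 replicate 1 or any p16 library, 0 of them were called either way, and without control replicate 1, 6 were higher and 2 lower. Immediate early and AP-1 genes were lower in 2 of 30, or 3 higher and 7 lower with the block. The lower count was 0 without p21 replicate 2 or p16 replicate 1, 1 without p21 replicate 1, p16 replicate 2 or p16 replicate 3, and 4 without p21 replicate 3 or control replicate 1. Hedgehog and Notch genes, Gli2 and Notch1 among them, were lower in 3 of 24, or 5 with the block, and 1 was without p21 replicate 1, p21 replicate 2, p16 replicate 2, p16 replicate 3 or control replicate 2.

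Unfolded protein response genes were higher in 1 and lower in 1 of 24, or 3 and 3 with the block. Both calls were lost without any 1 of the p21 or p16 libraries, and 3 were higher without control replicate 1. Glycolysis and hypoxia genes were higher in 3 of 34, and the block called 3 each way. The higher count was 0 without p21 replicate 1 and 1 without any other p21 or p16 library or control replicate 2, while 2 were lower without p21 replicate 3 and 1 without control replicate 1. BCL2 family genes were higher in 2 and lower in 2 of 16, or 5 and 2 with the block, and 0 were called either way without p21 replicate 1, p21 replicate 2 or p16 replicate 1. Without p16 replicate 2, 0 were higher and 1 lower, without p16 replicate 3, 1 higher and 0 lower, without control replicate 2, 1 each way, and without p21 replicate 3, 1 lower.

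Markers of other cell types were few, so that 1 or 2 calls make a large share. Mesothelial markers, Msln among them, were higher in 2 of 6 (33.3%), skeletal muscle markers in 2 of 7 (28.6%), and pericyte and smooth muscle markers in 2 of 9 (22.2%), against 6.19% of all genes tested. Des is in both the muscle and the pericyte list. The muscle and pericyte counts were 1 without p21 replicate 1, p21 replicate 2 or any p16 library, and the mesothelial count was 1 without p21 replicate 2, p16 replicate 1 or p16 replicate 2. Epithelial and keratinocyte markers were higher in 1 of 9, neural and glial markers in 1 of 8, and cartilage and bone markers in 1 of 9, and endothelial markers were lower in 1 of 10. The neural and endothelial calls were lost without p21 replicate 1 and the cartilage call without p16 replicate 2. Adipocyte markers were called by edgeR in 0 of 4, with 1 at an unadjusted p under 0.05 and 1 called by DESeq2, and the replicate block called 2 lower.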

How the data were processed

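RNA of 9 libraries was made with a column kit and a TruSeq version 2 kit, per the labels' protocols, which does not mark strand. The authors deposited unnormalised whole-number read counts per gene symbol. The submitters' processing notes name build mm10, featureCounts 1.4.6 and Subread, with Bowtie2 2.2.6 and TopHat2 2.0.14. For the annotation, strand setting and multiply mapped reads, the steps taken were not given in the sources used here.

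Genes were kept by filterByExpr, and group means were fitted to all 9 libraries with edgeR 4.0.16 in R 4.3.3 (quasi-likelihood F test, TMM, Benjamini-Hochberg over 14572 genes, threshold 0.05). The control libraries enter the gene filter, the TMM scaling and the estimate of the spread, but not the contrast of p21 and p16. Standard errors were computed as the absolute log2 fold change over the square root of F, and differences beyond 1.2-fold used glmTreat. CPM are scaled by TMM. Tested on simulated data, the fit called 58 of 100 genes changed 1.5-fold, 76 of 99 changed 2-fold and 13 of 14226 unchanged genes.

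Replicate numbers are shared by the groups. After subtracting group means, same-numbered p21 and p16 libraries had correlations of 0.486, 0.681 and 0.787 over 10481 genes. Between replicates 1 and 2 they were 0.336 and 0.343, and between replicate 3 and the other numbers they ran from -0.713 to -0.509. These correlations and the Xist level of replicate 3 are the grounds for treating the numbers as pairs. Xist sets only replicate 3 apart. The fit reported has no replicate term, and the blocked value stands beside a result where it changes it. No 2 libraries were merged (chi-square per degree of freedom from 10.6 upward).

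Members and gene lists were chosen with earlier results of these data known. Genes named are a panel of 20, the 10 largest called differences in each direction whose mean log2 CPM was 2 or more, up to 4 called members of each list with at least 3 called, the most abundant member of other lists, and genes whose libraries keep control between p21 and p16 or p16 apart. Others were named after their values were seen: Cdkn1b, Cdkn2d, Cdkn1c, Cdk4, Cdk6, Ccnd1, Tfeb, Icam1, Nfkb1, Mmp3, Mmp13, Adam12, Adamts5, Adamts9, Col6a3, Ifit3, Ptprc, Des, Csf1r, Cd14, Cd68, Emr1 and members named as not called. Positions are from GENCODE M21 (GRCm38). Promoters are from RefSeq on GRCm38.p6. Some genes that meet this rule are not reported here.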

Additional observations from a re-analysis of the deposited data

How the results depend on the processing

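No named call reversed under the alternatives run, but counts moved. With the replicate block, 3496 genes were called (1715 higher, 1781 lower), 205 at least 2-fold and 623 beyond 1.2-fold. With the block and the p21 and p16 libraries only, chosen after seeing the data, the values were 5341 (2623 and 2718), 240 and 1044. Requiring 1 CPM in 3 libraries left 69 genes at least 2-fold. Leaving out single libraries gave 600 to 2464 calls (284 to 1218 higher, 316 to 1246 lower), 55 to 149 at least 2-fold and 86 to 305 beyond 1.2-fold. DESeq2 size factors, scaling by library size, the DESeq2 test (2598 calls), no filter, no control libraries and replicates 1 and 2 alone (1804 calls, 1344 of them shared with the 1870) left the count of all genes called within 1.5 times. Counts within lists moved more: replicates 1 and 2 alone moved 26 of them, the test without control libraries 17 and library size alone 5. With replicates 1 and 2 alone, ribosomal protein calls went from 11 to 1 and HOX calls from 1 higher and 0 lower to 7 and 6. With library size alone, higher serpin calls and higher TGF-beta, BMP and Wnt calls each went from 3 to 1. Fewer libraries leave fewer degrees of freedom. At this depth and number of libraries, 58% of 1.5-fold differences were called in simulated data. The simulation drew each library independently and changed far fewer genes than were called here, so that share need not hold for the real libraries.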
